A study of Mus musculus with 2 samples.

Results

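The genes described here encode receptors and enzymes of the prostaglandin and leukotriene pathways. There are 10 of them among the 21938 protein-coding genes of the GENCODE annotation of GRCm38 (mitochondrial genes left out), and they were chosen by gene symbol for their role in the pathway. They are Ptgdr2, Ptgir, Ptger1, Ptger2, Ptger4, Hpgds, Alox5, Alox5ap, Ltb4r1 and Ltc4s. For each gene, all peaks of H3K4me3, a histone mark found at the starts of active genes, were taken that overlapped the gene body or lay within 1000 bp of an annotated transcript start. The mark was profiled in group 2 innate lymphoid cells (ILC2s) of the adult lung by CATCH-seq, a carrier-assisted native ChIP-seq for small cell numbers.

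Both groups were 8-week-old wild-type C57BL/6J mice, and each was profiled in 1 library of about 3000 lung ILC2s, sorted as CD45+, Lin- and ST2+ cells (for adult lungs the study's reporting summary adds CD90.2+). The mothers of the first group were sensitized with PBS in alum and given PBS intranasally while pregnant (offspring of control mothers). The mothers of the other group were sensitized with ovalbumin (OVA, 100 µg) in alum and given OVA (500 µg) intranasally every few days between gestation days 4 and 17 (offspring of asthmatic mothers). In both groups the mothers were mated with untreated males. The study's legend gives a single pregnant dam per group, so mother, litter and library cannot be told apart, and no difference below has a replicate or a test. The peaks of these libraries are called the control list (offspring of control mothers) and the asthma list (offspring of asthmatic mothers).

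Prostaglandins and leukotrienes are lipid mediators made from arachidonic acid. In the prostaglandin branch, cyclooxygenases make prostaglandin H2, from which terminal synthases such as Hpgds make prostaglandin D2 and the others. In the leukotriene branch, Alox5 (5-lipoxygenase) acts together with the membrane protein Alox5ap (FLAP) to make leukotriene A4, which Ltc4s turns into the cysteinyl leukotriene C4 and Lta4h into leukotriene B4. In ILC2s, prostaglandin D2 acting on its receptor Ptgdr2 (CRTH2) and cysteinyl leukotrienes are known to activate, whereas prostaglandin I2 acting on Ptgir and prostaglandin E2 acting on Ptger2 and Ptger4 are known to restrain.

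The sequences at issue are the stretches just upstream of the annotated starts and the stretches inside the genes where peaks were listed. They are shown because CG dinucleotides, printed in capitals, were few upstream of most of these genes and denser inside several of the peaks. All are from RefSeq, GRCm38.p6, and read 5′ to 3′ along the gene. The RefSeq promoter table held 8 of the 10 genes and lacked Ptger1 and Alox5ap. The first 4 are the 250 bases upstream of the RefSeq start of a gene with no listed peak (Ptgdr2, chr19:10936910-10937159, plus strand) and of Ptger2 (chr14:44987861-44988110, plus strand), Alox5 (chr6:116461179-116461428, minus strand) and Ptger4 (chr15:5244188-5244437, minus strand).
Ptgdr2 upstream: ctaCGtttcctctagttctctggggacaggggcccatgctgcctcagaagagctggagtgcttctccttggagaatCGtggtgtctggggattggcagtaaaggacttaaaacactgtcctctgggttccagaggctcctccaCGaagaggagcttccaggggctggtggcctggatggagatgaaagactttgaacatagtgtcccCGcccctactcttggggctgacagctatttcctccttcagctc
Ptger2 upstream: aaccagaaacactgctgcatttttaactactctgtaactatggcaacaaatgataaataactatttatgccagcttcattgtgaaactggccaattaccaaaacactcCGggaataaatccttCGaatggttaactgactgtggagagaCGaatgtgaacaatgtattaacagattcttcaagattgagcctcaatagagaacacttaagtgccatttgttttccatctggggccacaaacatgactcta
Alox5 upstream: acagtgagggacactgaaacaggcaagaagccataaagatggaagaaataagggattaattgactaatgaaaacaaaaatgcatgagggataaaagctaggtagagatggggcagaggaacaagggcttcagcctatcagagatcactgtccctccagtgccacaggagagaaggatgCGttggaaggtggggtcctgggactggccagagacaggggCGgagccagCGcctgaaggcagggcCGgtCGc
Ptger4 upstream: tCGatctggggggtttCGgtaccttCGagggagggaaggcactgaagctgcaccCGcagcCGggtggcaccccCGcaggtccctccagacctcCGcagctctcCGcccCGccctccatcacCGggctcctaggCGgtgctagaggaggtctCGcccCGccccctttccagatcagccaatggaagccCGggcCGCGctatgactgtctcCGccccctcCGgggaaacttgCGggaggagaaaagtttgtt
The next 2 come from inside peaks that overlapped between both lists. They are coding bases of Ptger2 (chr14:44989271-44989470) and the whole intronic Alox5 peak of the asthma list (chr6:116460645-116460867).
Ptger2 coding stretch: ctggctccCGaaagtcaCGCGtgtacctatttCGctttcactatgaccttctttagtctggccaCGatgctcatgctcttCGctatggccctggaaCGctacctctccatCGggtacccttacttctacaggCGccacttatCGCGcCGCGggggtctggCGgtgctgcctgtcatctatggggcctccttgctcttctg
Alox5 intron: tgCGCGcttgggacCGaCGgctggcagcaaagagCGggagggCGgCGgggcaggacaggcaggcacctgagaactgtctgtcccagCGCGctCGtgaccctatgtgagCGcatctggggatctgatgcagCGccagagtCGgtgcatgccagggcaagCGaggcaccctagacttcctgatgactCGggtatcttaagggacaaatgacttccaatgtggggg
The last 3 lie in peaks listed in the control list alone, and hold no annotated exon. They are intronic bases of Hpgds (chr6:65144539-65144672, minus strand), of Ltb4r1 (chr14:55766353-55766652, plus strand) and of Ltc4s (chr11:50236713-50236952, minus strand).
Hpgds intron: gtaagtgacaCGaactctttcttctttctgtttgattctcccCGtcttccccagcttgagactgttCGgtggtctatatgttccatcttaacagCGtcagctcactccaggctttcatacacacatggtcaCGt
Ltb4r1 intron: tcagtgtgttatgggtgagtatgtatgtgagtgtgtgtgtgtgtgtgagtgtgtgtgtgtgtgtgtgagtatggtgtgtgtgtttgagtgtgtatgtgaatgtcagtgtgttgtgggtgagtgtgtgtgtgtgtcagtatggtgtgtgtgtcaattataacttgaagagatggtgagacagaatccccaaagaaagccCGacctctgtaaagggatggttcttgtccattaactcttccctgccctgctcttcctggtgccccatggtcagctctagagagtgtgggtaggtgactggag
Ltc4s intron: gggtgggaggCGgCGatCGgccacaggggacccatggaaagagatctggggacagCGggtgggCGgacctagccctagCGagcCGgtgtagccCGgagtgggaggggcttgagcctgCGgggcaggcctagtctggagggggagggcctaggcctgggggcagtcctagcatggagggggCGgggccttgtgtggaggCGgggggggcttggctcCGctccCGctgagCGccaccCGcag
The upstream stretches of Ptgdr2, Ptger2 and Alox5 hold 4, 3 and 5 CG, that of Ptger4 holds 19, and the coding stretch of Ptger2 holds 14. The Ltb4r1 stretch holds 1 CG, and interrupted TG repeats fill its first part.

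The control list held 42126 peaks and the asthma list 51610. The lists give each peak a fold (its summit over the local background) and, as −log10 values, a p and a q, where larger values mean a clearer peak. Of these peaks, 65.4% and 77.8% consisted of repeat-masked sequence over more than 50% of their length, and the median widths were 315 and 249 bp. The total depth of the libraries is not in the lists. Fragments at each summit and in about 10 kb around it were solved from the fold and the −log10 p of each peak, and these derived numbers carry exact Poisson 95% intervals that cover counting error only. A summit in the quietest background needed 9 fragments to be listed in the control list and 8 in the asthma list, and a summit in a higher local background needed more, so a gene without a listed peak is not shown to lack the mark. Of 15 ILC2 marker genes, 12 had a start peak in the control list and 9 in the asthma list. Il1rl1, which encodes the sorting marker ST2, and Rora had one in both lists, and Gata3 and Il7r had one in the control list alone. Of 56 markers of 9 other cell types, 7 and 5 had a start peak. Macrophage, neutrophil, B cell and fibroblast markers had none in either list. Ccr3, 1 of 5 markers of eosinophils, which also make leukotriene C4, and Lat, 1 of 7 T cell markers, had one in both lists. For adult lungs the study's reporting summary lists lineage antibodies to CD11b, which eosinophils carry, and to CD3e, which T cells carry. How far the gate removed these cells was not tested. Of 10 mast cell and basophil markers, cells that make much prostaglandin D2 and leukotriene C4, Mitf and Kit had a start peak in both lists, and the defining Cpa3, Mcpt8, Ms4a2 and Fcer1a had none. Epcam, Cdh1 and Kdr had one in the control list alone and Sftpb in the asthma list alone, and the part of other cells in the results below was not tested.

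Of the 10 genes, 7 had a start peak in the control list (exact Clopper-Pearson 95% interval 34.8 to 93.3%), beside 51.0% of all coding genes. In the asthma list 4 had one (12.2 to 73.8%), beside 42.0%. Counting peaks in the gene body as well gave the same 7 and 4 genes, beside 58.2% and 51.9% of all coding genes, and left each count that follows the same. Ptgir, Ptger2, Ptger4 and Alox5 had a start peak in both lists (41.3% of all coding genes, 49.4% with gene bodies), and in each of the 4 a start peak overlapped one of the other list, as in 99.2% of such coding genes. Hpgds, Ltb4r1 and Ltc4s had one in the control list alone (9.72%, 8.80% with gene bodies), and no gene of the 10 in the asthma list alone (0.711%, 2.49% with gene bodies). Ptgdr2, Ptger1 and Alox5ap had no listed peak in either library (48.2%, 39.3% with gene bodies). Among the 7 genes with a start peak in the control list, 3 had none in the asthma list, beside 19.0% of all such coding genes (15.1% with gene bodies).

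**Figure D1:**
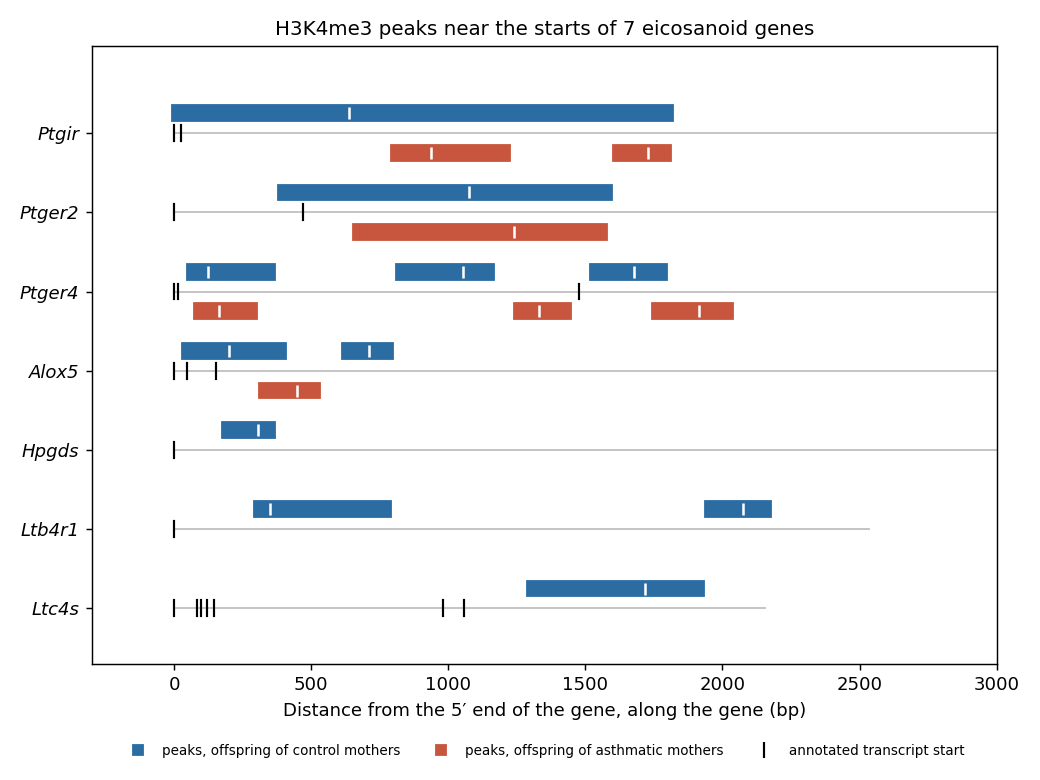
Peaks of H3K4me3 in the first 3000 bp of the 7 genes with a listed peak, as distance in bp from the 5′ end of each gene; blue boxes are peaks of the control list, red boxes those of the asthma list, white ticks their summits, black ticks annotated transcript starts and grey lines the gene body. Ptgir was covered by 1 wide peak of 1828 bp in the control list and by 2 short ones in the asthma list, and the lower 3 genes have blue boxes only.

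Among the receptors, Ptgir, the prostacyclin receptor that raises cyclic AMP, had the widest peak of the group. In the control list it was a single peak of 1828 bp (chr7:16906484-16908311) that ran from the annotated start into the gene, with its summit in coding sequence. Its width lay at the 99.98th percentile of all peaks of that list, its fold was 4.41 and its −log10 q was 10.3. The asthma list had over the same stretch a peak of 435 bp (chr7:16907282-16907716, fold 4.61, −log10 q 6.94) and another of 213 bp (chr7:16908090-16908302) that lay in an intron beyond 1000 bp from a start. The width of the start peak was thus 0.238 times that of the control list, and only 2.20% of the 9064 coding genes with start peaks in both lists had a ratio as low. With peaks up to 1000 bp apart joined, the widths were 1828 and 1021 bp, a ratio of 0.559. The summits held 34 fragments (23.5 to 47.5) and 21 (13.0 to 32.1), and the intervals overlapped.

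Ptger2 and Ptger4 are the prostaglandin E2 receptors that couple to cyclic AMP. Ptger2 had the clearest start peak of the group in both lists. It was 1218 bp wide in the control list (chr14:44988574-44989791, fold 6.39, −log10 q 14.3) and 928 bp wide in the asthma list (chr14:44988848-44989775, fold 6.01, −log10 q 9.12), and the narrower peak lay wholly inside the wider one. Both summits fell in the coding sequence, 1075 and 1240 bp downstream of the 5′ end of the gene. The starts of Gm17173 and Gm49364, transcribed from the other strand, lie within 1000 bp of this peak, so the mark cannot be assigned to a single gene. The summits held 31 fragments (21.1 to 44.0) and 20 (12.2 to 30.9).

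Ptger4 carried the mark as 3 separate start peaks in each list, none of them wider than 357 bp. The peak next to the annotated 5′ end had a −log10 q of 4.66 in the control list and 5.43 in the asthma list, with 28 (18.6 to 40.5) and 20 fragments (12.2 to 30.9). Here the peak with the lower q percentile, 12.9 against 26.4, was that of the control list, although its summit held more fragments. The local background around it was 465 fragments in 10 kb in the control list and 276 in the asthma list. The other start peaks lay over the coding sequence, and of these only the one farthest from the 5′ end overlapped between lists, by 55 bp. An intron more than 15 kb into the gene held a pair of peaks in both lists that consisted wholly of repeat-masked sequence. Their −log10 q was 11.5 and 15.3 in the control list and 9.58 and 14.4 in the asthma list, above that of each start peak of Ptger4 in the same list.

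Ltb4r1, the high-affinity leukotriene B4 receptor, is known for drawing leukocytes to sites of inflammation. It had a start peak of 499 bp in the control list (chr14:55766254-55766752, fold 3.71, −log10 q 6.17) and a second of 240 bp over its coding sequence (chr14:55767900-55768139, −log10 q 3.67). Of the start peak, 48.1% was repeat-masked, and it held 2 CG in all, the TG repeats shown above lying within it. Its summit held 25 fragments (16.2 to 36.9). In the asthma list the nearest listed peak lay 3488 bp from the gene, closest to the start of Ltb4r2, the neighbouring low-affinity leukotriene B4 receptor gene.

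No peak was listed at the other receptors. Ptgdr2, the prostaglandin D2 receptor, has a single annotated transcript and was not a marker of the sort. Its nearest peaks lay 6012 bp away in the control list and 6178 bp away in the asthma list, at the start of Ccdc86. Ptger1, a prostaglandin E2 receptor coupled to calcium, had its nearest peaks 13650 and 13692 bp away, at the start of Gipc1.

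Among the enzymes, Alox5, the 5-lipoxygenase, had a start peak in both lists, and both were weak. In the control list a peak of 383 bp lay over the first exon (chr6:116460768-116461150, fold 4.68, −log10 q 6.09), followed by a peak of 190 bp in the intron. In the asthma list a single peak of 223 bp lay in the intron shown above (fold 4.22, −log10 q 3.56) and overlapped the first by 100 bp. The summits held 17 fragments (9.90 to 27.2) and 10 (4.80 to 18.4). A further intronic peak of 191 bp, wholly repeat-masked, was listed in the asthma list alone (chr6:116432780-116432970, −log10 q 9.59), and it was stronger than the start peak. Alox5ap, the partner of Alox5, had no peak within 35490 bp in the control list or within 39230 bp in the asthma list.

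Hpgds, the hematopoietic prostaglandin D synthase, had a single short peak of 195 bp in the control list (chr6:65144539-65144733, fold 4.60, −log10 q 4.60). It spanned the end of the first exon and the first bases of the first intron, which are the Hpgds stretch shown above, and its summit held 12 fragments (6.20 to 21.0), where 9 were needed. Ltc4s, the leukotriene C4 synthase, had a peak of 648 bp in the control list (chr11:50236682-50237329, fold 5.89, −log10 q 9.14) with 20 fragments (12.2 to 30.9) at the summit. Of the members' peaks found in the control list alone, this one had the highest −log10 q. It lay 1142 bp from the nearest start of a protein-coding Ltc4s transcript, was counted through the start of a noncoding transcript of the gene, and overlapped the start of Gm26542 on the other strand.

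How often a peak of the control list of such strength went unlisted in the other library was read from those of its start peaks, at any coding gene, whose −log10 q differed by at most 0.5 from the member's. No overlapping peak was listed in the asthma list for 78.5% of those like Hpgds, 66.8% of those like Ltb4r1 (63.3 to 70.1%) and 41.7% of those like Ltc4s (38.3 to 45.1%). For peaks like the first exon peak of Alox5 the share was 67.4%, and for those like Ptgir and Ptger2 it was 31.7% and 11.7%. For peaks like those of Ptger4 it was 78.4% for the peak next to the 5′ end, 59.8% for the one farthest from it and 74.4% for the one between them, and the first and second of these were overlapped by a peak of the asthma list. For Hpgds and Ltb4r1 most peaks of like strength were thus unlisted in the asthma list, and for Ltc4s the smaller part was. The 5′ peak of Ptger4, like that of Hpgds in strength, had an overlapping peak there. Peaks were matched by −log10 q alone, not by local background, width or repeat content, and why the 3 genes were unlisted was not tested.

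Within each list the start peaks of these genes ranked low. The percentile of the top start peak by −log10 q had a median of 44.3 over the 7 genes in the control list, beside 82.7 over all coding genes with a start peak. In the asthma list it was 37.5 over 4 genes, beside 60.7. Ptger2 alone lay above the median of all coding genes, at 84.1 in the control list and 70.3 in the asthma list. The lowest values were 11.4 for Hpgds in the control list and 3.18 for Alox5 in the asthma list. The fragments at their summits had a median of 26.5 over the 10 start peaks of the control list, 3 of them at Ptger4, beside 24.0 for all start peaks. Over the 6 of the asthma list, again with 3 at Ptger4, the median was 20.0, beside 16.0. Hpgds, with 12 fragments, and Alox5, with 15 and 17, lay under the lower quartile of 19 in the control list, and Alox5, with 10, lay under that of 13 in the asthma list.

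**Figure D2:**
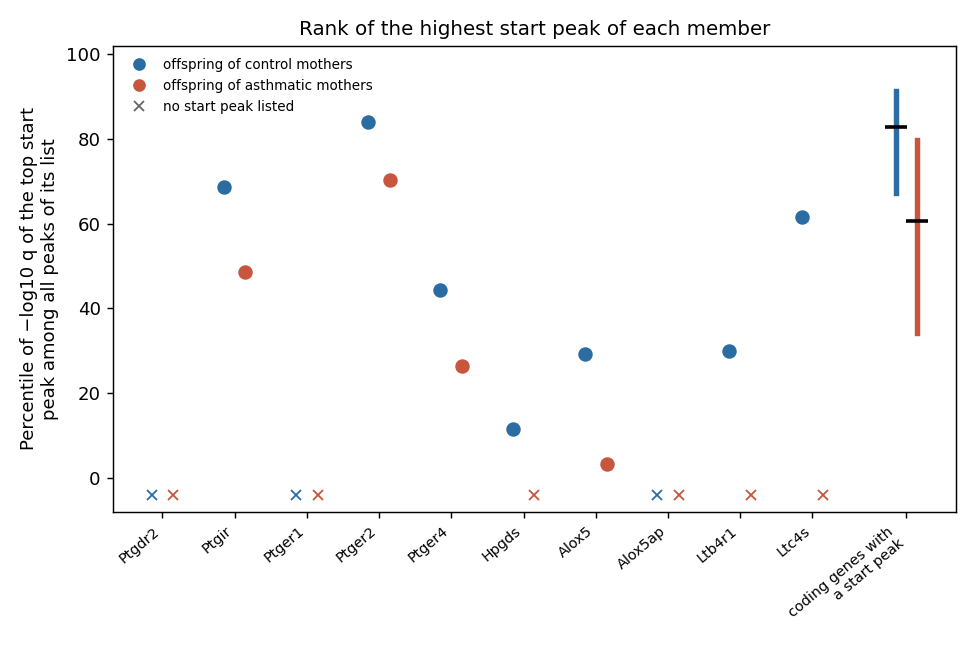
Percentile of −log10 q of the highest start peak of each gene among all peaks of the same list (dots; crosses mark genes without a listed start peak); at the right, bars span the quartiles and black ticks the median over all coding genes with a start peak, blue for the control list and red for the asthma list. The 4 genes with both dots have the red dot lower, and Ptger2 alone reaches the medians of 82.7 and 60.7.

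Between the lists, the percentile of the top start peak was 68.7 in the control list and 48.7 in the asthma list for Ptgir, 84.1 and 70.3 for Ptger2, 44.3 and 26.4 for Ptger4 and 29.2 and 3.18 for Alox5. It was lower in the asthma list for 86.7% of all coding genes with start peaks in both lists. For Ptger4 the top peaks are at different places and do not overlap. Of its overlapping pairs, the one next to the 5′ end was at 12.9 in the control list and 26.4 in the asthma list, and the one farthest from it was at 44.3 and 8.55, so the direction depended on the peaks compared. The direction also depended on the peaks ranked against. Among peaks at coding starts only, the percentile of the top start peak was 39.4 and 45.5 for Ptgir, 63.5 and 68.8 for Ptger2, 19.9 and 23.4 for Ptger4 and 12.2 and 2.65 for Alox5, and it was lower in the asthma list for 61.4% of all coding genes. Among peaks with at most 50% repeat-masked bases the directions were those among coding starts. Alox5 was the gene of the 4 whose rank was lower in the asthma list under each of these rankings.

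The widest start peak was narrower in the asthma list for each of the 4 genes, as for 93.3% of all coding genes. The ratio was 0.238 for Ptgir, 0.582 for Alox5, 0.762 for Ptger2 and 0.829 for Ptger4, beside a median of 0.645 over all coding genes (quartiles 0.471 and 0.808). For Ptger4 the widest peaks, 357 and 296 bp, lie at different places. Its overlapping pairs were 320 and 231 bp wide next to the 5′ end and 281 and 296 bp wide farthest from it. Relative to the smallest width each list allowed, 190 and 156 bp, the ratio of Ptger4 was 1.01 and that of Ptger2 was 0.928. Ptger4 turned to 1.12 with nearby peaks joined. The ratios of Ptgir and Alox5 stayed below 0.75 under these settings.

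The fragments in 10 kb around the peaks were fewer in the asthma list for all 4 genes, as in 84.8% of coding genes, although the smallest background was similar in the lists (96.1 and 100.4 fragments per 10 kb). For Ptgir there were 365 and 242 (ratio 0.663, exact conditional 95% interval 0.561 to 0.782). For Ptger4 there were 490 and 309 (ratio 0.631, 0.545 to 0.729), and only 5.00% of coding genes had a ratio as low. For Ptger2 there were 211 and 160 (ratio 0.758, 0.614 to 0.936), and for Alox5 151 and 103 (ratio 0.682, 0.526 to 0.882). The median over all coding genes was 0.816, with quartiles at 0.728 and 0.929, so that 3 of the 4 genes lay under the lower quartile. Genes at the smallest background of a list, which cannot go lower, were kept among these coding genes. The asthma list value of Alox5, 103, was near that limit of 100.4. At the summits alone, the ratios lay between 0.588 and 0.645 and all 4 intervals included 1. For Ptger4 this sets the highest summits, 34 and 20 fragments, side by side although their peaks do not overlap, and its overlapping pairs had 28 and 20 next to the 5′ end and 34 and 19 farthest from it. With each summit divided by the smallest summit background of its list (1.83 and 1.57 fragments), the ratios lay between 0.686 and 0.752. The median over all coding genes was 0.715. These backgrounds differ from those per 10 kb because they cover a fragment length, taken as 190 and 156 bp.

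**Figure D3:**
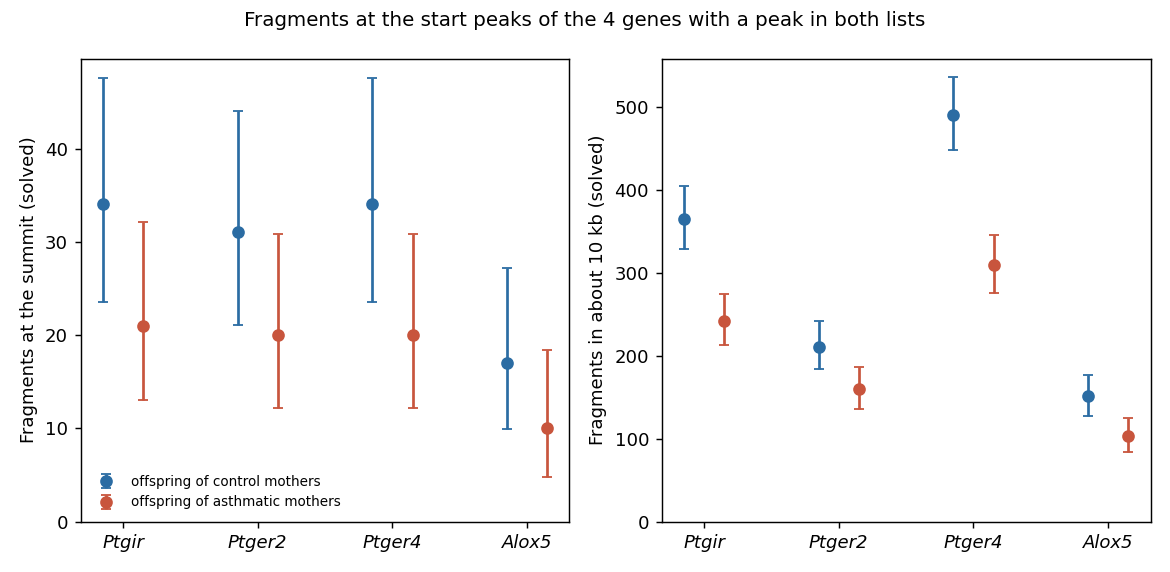
Fragments at the highest summit (left) and in about 10 kb around the start peaks (right), solved from the deposited fold and −log10 p, for the 4 genes with a start peak in both lists; dots are the single libraries and bars exact Poisson 95% intervals, which cover counting error only. The bars overlap at every summit, whereas in the 10 kb windows those of Ptgir, Ptger4 and Alox5 are apart and those of Ptger2 overlap.

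In position, the summit of the top start peak was a median of 349 bp downstream of the nearest annotated start over the 7 genes in the control list, beside 137 bp over all coding genes with a start peak. That of Alox5, at 47 bp, lay nearer to a start than this median of all coding genes. In the asthma list the median was 532 bp over 4 genes, beside 117 bp. The summits of Ptgir and Ptger2 fell in coding sequence in both lists, those of Hpgds, Ltb4r1 and Ltc4s in introns, and that of Alox5 in the coding part of the first exon in the control list and in the intron in the asthma list.

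The stretches upstream of the starts were poor in CG for 7 of the 8 genes in the RefSeq table. These stretches were set by RefSeq starts, whereas peaks were placed by GENCODE starts. For Hpgds and Ltc4s the RefSeq start lay inside the GENCODE gene, so part of the stretch was gene sequence. There were 3 CG in the 250 bases for Hpgds, Ltc4s, Ptger2 and Ltb4r1, 4 for Ptgdr2, 5 for Alox5 and Ptgir and 19 for Ptger4. The median was 10 over 16522 coding genes, 17 over those with a start peak in the control list and 3 over those without. Of all genes with at most 3 CG, 10.8% had a start peak in the control list (9.91 to 11.7%), and all 4 genes of this group with so few did. In the asthma list the share was 8.63%, and of these 4 genes Ptger2 had a start peak. None of the 4 peaks of the control list overlapped a protein-coding start of its gene. The nearest such start was 175 bp away for Hpgds, 292 bp for Ltb4r1, 379 bp for Ptger2 and 1142 bp for Ltc4s. The peaks of Ptger2 and Ltc4s also had a start of another gene within 1000 bp. Inside the start peaks of Ptgir, Ptger2, Hpgds, Alox5 and Ltc4s in the control list CG was denser, from 2.11 to 9.10 per 100 bp, where the upstream stretches of these genes had 1.2 to 2.0. The peak of Ltb4r1, with its TG repeats, had 0.401 beside 1.2 upstream. Of the 3 start peaks of Ptger4, 1 was denser (10.3) and the others less dense (4.48 and 7.19) than its upstream stretch (7.6). Over all 10 start peaks of the control list the median was 4.70 per 100 bp, beside 8.31 over all peaks at coding starts, and over the 6 of the asthma list it was 6.06, beside 9.34.

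**Figure D4:**
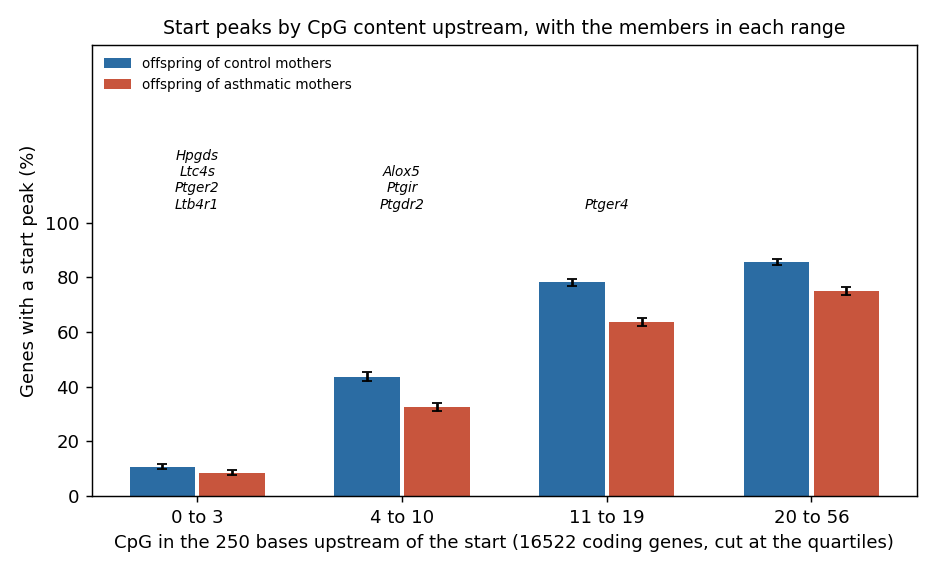
Share of coding genes with a start peak by the number of CG in the 250 bases upstream of the RefSeq start, in the control list (blue) and the asthma list (red), with exact Clopper-Pearson 95% intervals; names above the bars are the genes described here in that range. With at most 3 CG the shares were 10.8% and 8.63%, and the range holds Hpgds, Ltc4s, Ptger2 and Ltb4r1.

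Short motifs of factors known in ILC2s were searched on both strands of the same upstream stretches, and matches are a description only. GATA, bound by Gata3, was found in 4 of the 8 genes (Alox5, Ptgir, Ltc4s and Ptger2), beside 49.4% of all 16522 promoters. TGTGGT, bound by Runx factors, was found in Hpgds, Ltc4s and Ltb4r1, beside 12.2%. TGTTCT, the half-site letters of the glucocorticoid receptor, was found in Ptger2 alone, beside 13.6%. GGAA, the Ets core, was found in all 8, beside 93.1%, and CACCC in 4 (Ptgir, Ltc4s, Ltb4r1 and Ptger4), beside 53.6%.

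The rest of the pathway was read from a list of 41 further genes for synthesis, breakdown, transport and reception of eicosanoids. Of these 15 had a start peak in the control list (36.6%, 22.1 to 53.1%) and 11 in the asthma list (26.8%, 14.2 to 42.9%), beside 51.0% and 42.0% of all coding genes. The 11 were among the 15, so that 4 genes (9.76%) had a start peak in the control list alone, beside 9.72% of all coding genes, and none had one in the asthma list alone, beside 0.711%. With gene bodies counted, Pla2g5, a secreted phospholipase A2, had a peak in the asthma list alone (2.49% of all coding genes), which was wholly repeat-masked, with a −log10 q of 6.00. Of these 11, 10 had a narrower widest peak and 11 a lower percentile in the asthma list, and 9 a lower percentile among peaks at coding starts, beside 93.3%, 86.7% and 61.4% of all coding genes with start peaks in both lists.

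In the prostaglandin branch, Ptges3 and Ptges2 (prostaglandin E synthases) and Tbxas1 (thromboxane synthase) had start peaks in both lists. The percentile of Ptges2 was 91.2 in the control list and 9.66 in the asthma list, although its widest start peaks were 313 and 342 bp. It was the only one of the 11 genes whose widest start peak was wider in the asthma list. For Tbxas1 the percentiles were 84.9 and 28.0, and for Ptges3 93.2 and 68.7. Ptgs1, the constitutive cyclooxygenase, had a start peak in the control list alone (chr2:36230441-36230876, −log10 q 8.84), and Ptgs2, the inducible cyclooxygenase, had none in either list. Cbr1 and Ptgr1, which break down or convert prostaglandins, the exporter Abcc4 and the nuclear receptor Pparg had start peaks in both lists. Pparg, which some prostaglandin D2 metabolites activate, had the widest peaks of the 41 genes, 1458 and 969 bp. The receptor genes Ptgdr, Ptger3, Ptgfr and Tbxa2r had no listed peak.

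In the leukotriene branch, Lta4h, which makes leukotriene B4, had percentiles of 88.4 and 78.8. Among peaks at coding starts its direction turned, with 73.0 in the control list and 79.3 in the asthma list, as did that of Ltb4r2, with 31.0 and 37.9. Abcc1, an exporter of leukotriene C4, Cotl1, which binds Alox5, and Ltb4r2 also had start peaks in both lists. Mgst3, which can make leukotriene C4, Ggt5, which turns it into leukotriene D4, and Cysltr2, a cysteinyl leukotriene receptor, had start peaks in the control list alone. Mgst3 stood apart among them. Its peak of 278 bp (chr1:167394148-167394425) had a −log10 q of 18.4, at the 92.8th percentile, with 29 fragments at the summit, and only 5.59% of start peaks of like strength had no overlapping peak in the asthma list (3.62 to 8.21%). The nearest listed peak of the asthma list lay 6482 bp away and was wholly repeat-masked. For peaks like those of Ptgs1, Ggt5 and Cysltr2 the shares were 43.5%, 59.9% and 59.6%. Cysltr1, the other cysteinyl leukotriene receptor and one known in ILC2s, had no start peak. Away from its starts it held a peak in both lists that was wholly repeat-masked, with a −log10 q of 4.17 in the control list and 16.9 in the asthma list.

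**Figure D5:**
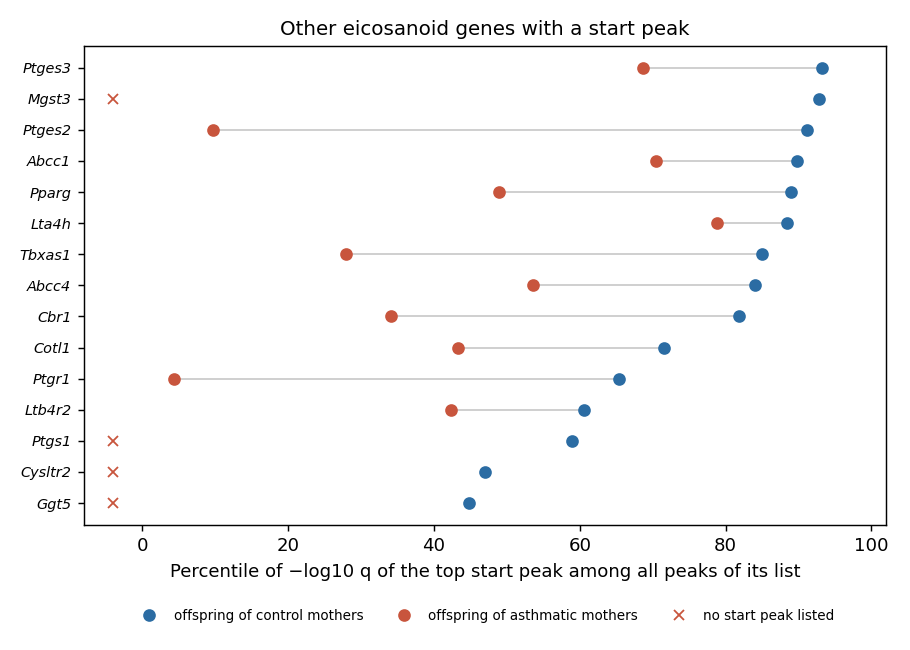
Percentile of −log10 q of the highest start peak among all peaks of its list for the 15 further eicosanoid genes with a start peak, in the control list (blue) and the asthma list (red); crosses mark genes without a listed start peak. Each of the 11 genes with both dots has the red dot to the left, from a small gap for Lta4h to a wide one for Ptges2, and Mgst3, near the top in blue, has none in red.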

How the data were processed

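Peak lists of 2 H3K4me3 CATCH-seq libraries of lung ILC2s were used, 1 per group of mothers. The authors trimmed reads with Trim Galore and cutadapt, used Bowtie 2 to align to GRCm38 and dropped duplicates with Sambamba. The peak caller, its threshold and any control used in the calling are not given in the sources used here. The study's methods say that part of each lysate was set aside to make an input library. Whether such a library entered the peak lists is not stated. The study's reporting summary says that peak calling was not done for the ChIP-seq, so how these lists arose is not known here. The deposited lists hold for each peak a fold (a ratio of summit to background), a −log10 p-value, a −log10 q-value and a score. The score repeats the q on a scale of whole numbers for 99.98% of peaks in the control list and 99.998% in the asthma list. None of these values is scaled between the libraries, and ranks were therefore taken within each list. Overlap was at least 1 bp.

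Fragments t and background b were solved from fold = (t + 1)/(b + 1) and the Poisson p, which gave whole t for 99.99% of peaks (relative tolerance 1e-04). The smallest peak width stood for the fragment length, and the solution assumes that no control library was used. Solving and overlaps were tested on simulated data. Shares have exact Clopper-Pearson and ratios exact conditional 95% intervals, which cover counting error only. With 1 library per group no test was made. The text names the 10 genes, the further eicosanoid genes by rule where they had a start peak, genes sharing a peak, and markers. Members, lists and alternatives were chosen with earlier results of these data known. Other genes named without a start peak were named for their role after the values were seen. Of a gene symbol with several identifiers, the first was used. Python 3.11.15, numpy 2.4.6, pandas 2.3.3, scipy 1.17.1, pysam 0.24.0 and matplotlib 3.10.9 were used.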

Additional observations from a re-analysis of the deposited data

How the results depend on the processing

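No paired analysis was possible because each group had a single library. Of 85 alternatives to the values that summarise a comparison, 61 left it alike (a count within 1.5 times), 22 moved it and 2 turned its direction. With only the 10000 peaks of highest −log10 p in each list, 2 and 1 of the 10 genes had a peak in offspring of control and of asthmatic mothers, 1 and 0 had a start peak, and 0 overlapped between lists. Under that limit the 41 further genes gave 9 and 3 with a peak and 9 and 0 with a start peak, ILC2 markers gave 2 and 1, and other markers 3 and 0. Among peaks with at most 50% repeat-masked bases, 3 other markers remained in offspring of asthmatic mothers. With −log10 q of at least 5, or with overlap over at least 50% of both peaks, 2 genes overlapped between lists in place of 4. The limit on q also removed the start peak of Hpgds from the control side and that of Alox5 from the asthmatic side, so Alox5 then had one in offspring of control mothers alone. The median width ratio of the 4 genes in both lists, 0.672, became 0.660 with peaks joined, 0.819 relative to the smallest width and 0.576 for summed widths. Ptger4 turned to 1.12 with peaks joined and 1.01 relative to the smallest width. The median difference in percentile, asthmatic minus control, was −19.0 and became −1.96 ranked by fold and −7.51 ranked by width. It turned to 4.37 among peaks at coding starts and 2.69 among peaks with at most 50% repeat-masked bases. Among coding starts Ptgir (6.12), Ptger2 (5.24) and Ptger4 (3.50) turned, and among the less repetitive peaks the same 3 genes did (3.97, 3.45 and 1.92). Ptger4 also turned when ranked by fold (7.44) and by width (4.03). The median ratio of summit fragments, 0.603, became 0.703 when scaled by the smallest summit background of each list. For these shifts, the cause was not tested. Counting peaks within 500 or 2000 bp of a start left the 7 genes of offspring of control mothers in place, and protein-coding starts alone removed Ltc4s. In offspring of asthmatic mothers, 500 bp removed Ptgir.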
